A study of Mus musculus with 9 samples.

Results

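Adrenomedullin (Adm), its receptor Calcrl and the 3 receptor activity-modifying proteins Ramp1, Ramp2 and Ramp3 were followed across 9 array samples of the mouse tumour line SCCVII. These 5 genes, of 18193 measured, were chosen by the low level of Ramp3 in the group called IR, so the values of Ramp3 in IR describe how the set was picked and are given with no test. Every probe set that the platform annotation gives to one of the 5 genes alone was taken, which made 10 of 34944 single-gene probe sets.

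SCCVII is a squamous cell carcinoma line from a tumour that arose spontaneously in the mouth of a mouse, and total RNA was hybridised to Affymetrix expression arrays, 3 for each group. PA was the parental culture, kept under standard conditions. NIR cells were recovered from tumours grown after PA cells were placed in stroma that had not been irradiated, and the labels call both these tumours and their lines weakly invasive and metastatic. IR cells were recovered likewise, from stroma irradiated before the injection; the labels call these tumours strongly hypoxic, and say that the lines kept their invasive and metastatic capacity in normoxic culture. Irradiation was thus given to the stroma and not to the cultured cells, and all 3 groups descend from the same parental cells. Nothing in the labels tells whether the replicate arrays stand for different tumours, lines or dishes, and p-values therefore reflect the spread among arrays, which may be technical.

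Adrenomedullin is a secreted peptide of the calcitonin family that widens blood vessels and is needed for the vascular and lymphatic endothelium, and its gene is a textbook target of hypoxia-inducible factor (HIF). Its receptor, the G protein-coupled receptor Calcrl, reaches the cell surface and takes its ligand preference only together with a RAMP. Calcrl with Ramp1 forms the receptor for calcitonin gene-related peptide, with Ramp2 the adrenomedullin receptor AM1 and with Ramp3 the receptor AM2, and all of them signal mainly through Gs and cyclic AMP.

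The promoters of Adm and Ramp3 are shown because Adm is the HIF target among the 5 genes and Ramp3 the member that differed most between the groups. The sequences are from RefSeq on build GRCm38.p6, both on the plus strand, and end at the last base before the annotated gene start. Capitals mark the core of the hypoxia response element, ACGTG or GCGTG, searched on both strands, so that CACGT or CACGC is the same core read from the other strand.
Adm promoter, chr7:110627407-110627656: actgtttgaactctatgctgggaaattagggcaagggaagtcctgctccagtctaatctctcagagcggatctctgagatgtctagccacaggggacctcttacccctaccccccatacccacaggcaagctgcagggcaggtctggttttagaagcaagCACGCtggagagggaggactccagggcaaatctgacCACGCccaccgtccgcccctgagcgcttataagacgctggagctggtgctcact
Ramp3 promoter, chr11:6658283-6658505: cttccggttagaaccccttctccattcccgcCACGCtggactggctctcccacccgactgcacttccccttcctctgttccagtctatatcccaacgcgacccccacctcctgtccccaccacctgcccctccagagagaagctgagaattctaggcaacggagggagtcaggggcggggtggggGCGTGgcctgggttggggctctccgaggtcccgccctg

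The core stood 90 and 54 bases before the gene start of Adm, and 192 and 38 bases before that of Ramp3. Such a match is a description of letters. Every promoter in the table was searched over the 250 bases before its listed start, and 38.6% of all 32851 such windows held the core at least once. For Ramp3 the 223 bases printed are the part of that window before the outermost gene start. The windows of Calcrl on chromosome 2 and of Ramp1 on chromosome 1 held none, and Ramp2 had no entry in the promoter table. The full cyclic AMP response element, TGACGTCA, was in none of the 4 windows and in 1.55% of all windows.

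The deposited RMA values are log2, so that a difference of 1 is a factor of 2, and the arrays had medians between 4.44 and 4.52. A gene was called where limma's moderated test, adjusted by Benjamini-Hochberg over all 18193 genes, gave an adjusted p below 0.05. Arrays have no counting depth, and their number limits the precision. In bulk RNA, fewer cells of a type and less RNA per cell cannot be told apart. Within IR, the IR3 array lay farther from the other 2: the SD of its differences over all genes was 0.203 from IR1 and 0.209 from IR2, against 0.129 between IR1 and IR2. The NIR arrays lay as far from each other (0.179 to 0.230). Results that turn on IR3 are given with and without it.

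Before the members, the labelled cell type was set against its markers. Of 12 squamous and epithelial markers, 8 lay above the array median on all 9 arrays, among them the simple epithelial keratins Krt8 and Krt18, while 4 lay below it on every array, including the basal squamous markers Krt14 and Trp63 and the adhesion molecule Cdh1. Krt5, Krt6a and Sfn were among those above it. The files used here hold no detection calls, so a low value is not called absent. Of 14 endothelial markers, the cell type best known for this receptor system, 8 lay below the array median on all 9 arrays, including Pecam1, Tek and Emcn, and 4 above it on all, including Cdh5, the endothelial cadherin. Their mean level was 4.42 to 4.44 in IR, 4.48 to 4.63 in NIR and 4.43 to 4.52 in PA, and limma called none in any comparison, with 2, 1 and 1 at an unadjusted p below 0.05 in IR against NIR, IR against PA and NIR against PA. Their median difference was -0.09, -0.03 and 0.05, where that of all genes was 0.0014, 0.0043 and 0.0046. Of the 14, 11 were lower in IR than in NIR, 11 lower in IR than in PA and 8 higher in NIR than in PA.

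Cdh5, like Ramp3, had its highest mean in NIR, but unlike Ramp3 it was not lower in IR than in PA. It read 5.78, 5.74 and 6.32 in IR, 6.65, 6.67 and 6.31 in NIR and 5.96, 5.81 and 5.95 in PA, so IR3 overlapped NIR. The difference was -0.60 between IR and NIR (limma adjusted p 0.06819), 0.64 between NIR and PA (0.06305) and 0.04 between IR and PA (0.9789). The first passed in 2 of 19 alternatives, without IR3 (-0.78, adjusted p 0.0138) and with array weights (-0.66, 0.0201). Over all 19 it ran from -0.78 to -0.41, with adjusted p-values up to 0.196. The second passed in 4 of 19: without IR3 (0.00769), without NIR3 (0.0456), with array weights (0.0364) and with the arrays compared alone (0.0264). Over all 19 it ran from 0.34 to 0.75, with adjusted p-values up to 0.268. The part of endothelial RNA in the values of the members was not tested.

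Ramp3, the partner that turns Calcrl into the AM2 receptor and also takes part in its recycling, separated all 3 groups. Its single probe set, 1420401_a_at (Entrez Gene 56089, chr11:6658506-6677478), read 7.72, 7.39 and 7.83 on the IR arrays, 9.03, 8.48 and 8.86 on the NIR arrays and 8.27, 8.30 and 8.31 on the PA arrays. No value of one group lay within the range of another: IR was lowest, PA was intermediate and NIR was highest. The mean ± SD (n = 3) was 7.65 ± 0.23 for IR, 8.79 ± 0.28 for NIR and 8.29 ± 0.02 for PA.

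In IR, Ramp3 was 2.21-fold lower than in NIR (log2 difference -1.14, SE 0.14) and 1.56-fold lower than in PA (-0.65, SE 0.14). These differences chose the set, so no test is given. Ramp3 had the rank 4 among 18193 genes from the most negative difference in IR against NIR, and rank 98 in IR against PA. With each array left out in turn, the difference ran from -1.30 to -1.02 against NIR and from -0.74 to -0.52 against PA. The same NIR arrays were part of the comparison that chose Ramp3, which limits the next value too: in NIR, Ramp3 stood 0.50 above PA (1.41-fold, SE 0.14, 95% interval 0.20 to 0.80), with a limma adjusted p of 0.1295. It was therefore not called there. Leaving out NIR2, the lowest of the NIR arrays, could only raise the difference, and gave 0.65 with an adjusted p of 0.0292. Without NIR1, the highest, it was 0.38 (0.29). Without PA1, PA2 or PA3 the adjusted p was 0.33, 0.336 and 0.286.

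**Figure D1:**
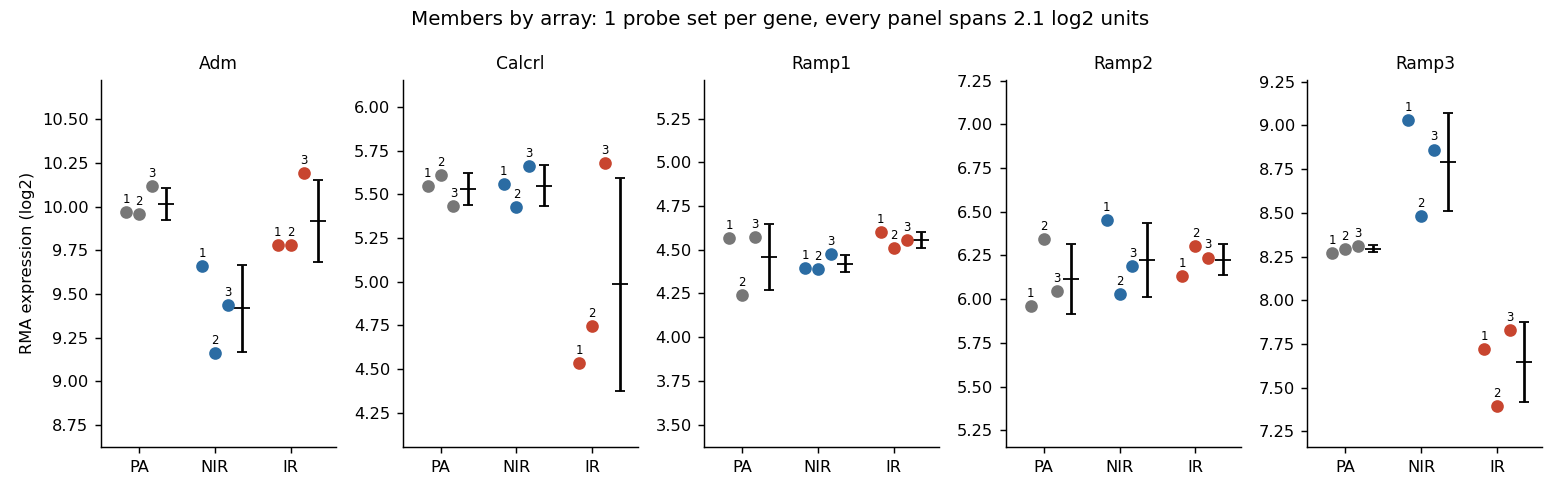
RMA expression (log2) of the 5 genes on each array, with 1 probe set per gene. Coloured points are single arrays numbered by replicate, grouped as PA, NIR and IR, and the black bar to the right of each group is the mean ± SD of its 3 arrays; each panel spans the same 2.1 log2 units around its own centre. Ramp3 separates the 3 groups, Adm is lowest in NIR, IR3 stands at the level of NIR and PA for Calcrl, and the differences in Ramp1 and Ramp2 are small.

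Adm, the ligand, showed another order. Its brighter probe set, 1447839_x_at (Entrez Gene 11535, chr7:110627657-110629820), read 9.78, 9.78 and 10.19 in IR, 9.66, 9.16 and 9.44 in NIR and 9.97, 9.96 and 10.12 in PA. NIR was lowest, and none of its arrays reached those of either other group, while IR and PA overlapped. The mean ± SD (n = 3) was 9.92 ± 0.24 for IR, 9.42 ± 0.25 for NIR and 10.02 ± 0.09 for PA.

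Adm stood 0.50 higher in IR than in NIR (1.41-fold, SE 0.13, 95% interval 0.20 to 0.79, limma adjusted p 0.09005) and was not called. Over the 20 alternatives this adjusted p ran from 0.0636 to 0.251, so it was not called in any of them. In NIR, Adm stood 0.59 below PA (difference -0.59, 1.51-fold, 95% interval -0.89 to -0.30, adjusted p 0.06056), also just short of the threshold. That comparison passed in 5 of 20 alternatives, among them the fits without IR3 (adjusted p 0.0233) and without NIR1 (0.038). IR and PA differed by -0.10 (95% interval -0.39 to 0.20, adjusted p 0.9115), which allows a difference in either direction.

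The other probe set of Adm, 1416077_at, gave the same order of group means. It read 9.70, 9.67 and 10.02 in IR, 9.71, 9.39 and 9.22 in NIR and 9.92, 9.81 and 10.00 in PA. On it NIR1 overlapped the IR arrays, and IR stood 0.35 above NIR (adjusted p 0.2289 over all 34944 probe sets), while NIR stood below PA by a difference of -0.47 (0.1591). The suffix of the brighter probe set marks probes that can also bind other transcripts, so its larger differences have this limit.

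Calcrl, the receptor itself, was low on 2 of the 3 IR arrays. Probe set 1425814_a_at (Entrez Gene 54598, chr2:84330626-84425405, minus strand) read 4.53, 4.75 and 5.68 in IR, 5.56, 5.43 and 5.66 in NIR and 5.55, 5.61 and 5.43 in PA. IR1 and IR2 lay below all 6 other arrays and IR3 above them, so the IR group overlapped both others. The mean ± SD (n = 3) was 4.99 ± 0.61 for IR, 5.55 ± 0.12 for NIR and 5.53 ± 0.09 for PA.

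Calcrl differed by -0.56 in IR against NIR (SE 0.22, 95% interval -1.05 to -0.08, limma adjusted p 0.2354) and by -0.55 against PA (95% interval -1.03 to -0.06, adjusted p 0.5011), and neither was called. Without IR3 the differences were -0.91 (adjusted p 0.00411) and -0.89 (0.00161), so both would be called. NIR and PA differed by 0.02 (95% interval -0.47 to 0.50, adjusted p 0.9861).

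A second Calcrl probe set, 1418489_a_at, did not show the high IR3 value. It read 3.68, 3.31 and 3.59 in IR, 3.97, 3.90 and 3.70 in NIR and 3.81, 3.91 and 3.91 in PA. All 3 IR arrays were below the 6 others, with differences of -0.33 from NIR (adjusted p 0.1629 over all probe sets) and -0.35 from PA (0.2729), which did not pass. Its signal lay under the array median throughout, as did that of the third, 1459536_at, which ranged from 2.81 to 3.08 and differed between groups by at most 0.10 in size (-0.10 in IR against NIR, adjusted p 0.6209).

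**Figure D2:**
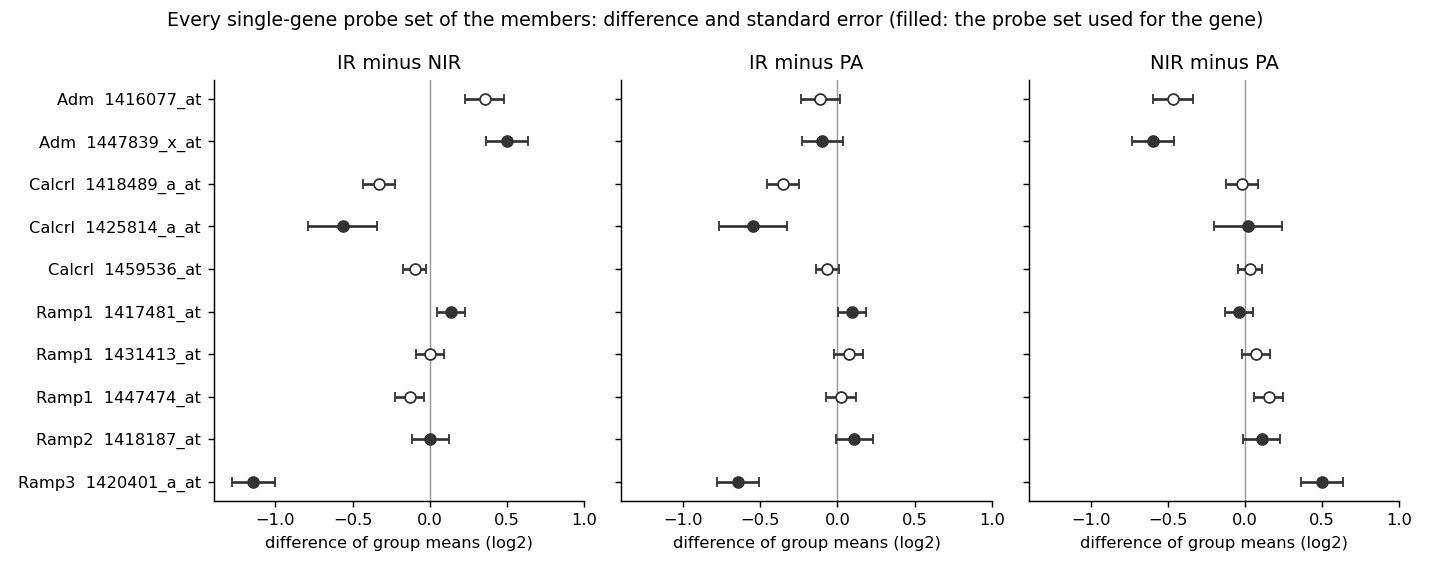
Difference of group means (log2) for each of the 10 single-gene probe sets of the 5 genes, with the standard error from the fit over all 9 arrays; panels are IR minus NIR, IR minus PA and NIR minus PA, and filled points mark the probe set used for the gene. Both Adm probe sets lie above 0 in IR minus NIR and below it in NIR minus PA, the 3 Calcrl probe sets lie below 0 in both comparisons of IR, and the 3 Ramp1 probe sets disagree in sign or lie at 0 in IR minus NIR.

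Ramp2, which makes the AM1 receptor and is the partner needed for vascular development, showed no difference past its spread. Probe set 1418187_at (Entrez Gene 54409, chr11:101246334-101248250) read 6.13, 6.31 and 6.24 in IR, 6.45, 6.03 and 6.19 in NIR and 5.96, 6.34 and 6.05 in PA, and the 3 groups overlapped. IR and NIR differed by 0.0021 with a 95% interval of -0.26 to 0.27 (limma adjusted p 0.9967), a sign that turned under median centring, quantile normalisation and array weights. IR minus PA was 0.11 (95% interval -0.15 to 0.37, adjusted p 0.8905) and NIR minus PA 0.11 (-0.16 to 0.37, adjusted p 0.7834). For IR against NIR, the interval leaves out a difference of the size seen in Ramp3. A further 2 probe sets are annotated to Ramp2 together with its neighbour Vps25 and were left out, since their signal cannot be assigned to either gene.

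Ramp1, the partner in the receptor for calcitonin gene-related peptide, had little signal. Probe set 1417481_at (Entrez Gene 51801, chr1:91179822-91225196) read 4.60, 4.51 and 4.55 in IR, 4.39, 4.39 and 4.48 in NIR and 4.57, 4.24 and 4.57 in PA, all close to the array median. The IR arrays lay above those of NIR, by 0.13 (95% interval -0.06 to 0.33, limma adjusted p 0.5297), and both groups overlapped PA, with differences of 0.09 for IR (-0.10 to 0.29, adjusted p 0.8633) and -0.04 for NIR (-0.24 to 0.16, adjusted p 0.9137). The other probe sets, 1431413_at (3.47 to 3.84) and 1447474_at (4.05 to 4.51), gave differences of 0.0013 and -0.13 in IR against NIR, so the direction of Ramp1 was not settled by its probe sets.

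Apart from Ramp3, none of the 4 members was called in IR against NIR or in IR against PA, and none of all 5 in NIR against PA. By limma without adjustment, 2 of 4, 1 of 4 and 2 of 5 had a p below 0.05, where 15.9%, 8.59% and 12.1% of all genes did. Over all genes, 0.786% were called higher and 0.863% lower in IR against NIR, 0.297% higher and 0.759% lower in IR against PA, and 0.379% higher and 0.918% lower in NIR against PA. Groups did not overlap for 2 of 4 members in IR against NIR (Adm and Ramp1), for 0 of 4 in IR against PA and for 2 of 5 in NIR against PA (Adm and Ramp3), where 18.1%, 14.7% and 15.5% of all genes did not overlap. These comparisons share their groups: IR against NIR and NIR against PA both use the NIR arrays, so opposite signs in them are not separate observations. Ramp3 is in both member counts for NIR against PA, and its NIR arrays were part of the comparison that chose it. Those counts are therefore not free of the choice.

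The ligands and receptors nearest to the members were not called. Of the 6 listed relatives of the calcitonin family, 5 were measured by a single-gene probe set, and limma called 0 of 5 in each comparison, with 2, 1 and 1 at an unadjusted p below 0.05. Adm2, the other adrenomedullin peptide, had group means of 7.90 ± 0.12 (IR), 7.98 ± 0.27 (NIR) and 7.64 ± 0.07 (PA). Both tumour-derived groups had a higher mean than PA, by 0.27 for IR (limma adjusted p 0.567) and 0.34 for NIR (0.262). Neither overlapped PA, but NIR1 at 7.7103 was barely above PA1 at 7.7085. Of all genes, 14.7% did not overlap in IR against PA and 15.5% in NIR against PA. Calcb, the beta form of calcitonin gene-related peptide, read 7.78 on IR3 and 6.62 and 6.52 on IR1 and IR2, and IR overlapped both other groups. Iapp, the peptide amylin, stood lower in IR than in NIR by a difference of -0.35 (adjusted p 0.1735). The list's median difference was -0.07 in IR against NIR, 0.06 in IR against PA and 0.14 in NIR against PA, where the median of all genes was 0.0014, 0.0043 and 0.0046.

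Ackr3, an atypical chemokine receptor that also takes up and clears adrenomedullin, rose in IR against NIR and fell in NIR against PA. It read 7.85, 7.92 and 8.16 in IR, 7.47, 7.32 and 6.97 in NIR and 7.86, 7.92 and 7.84 in PA. NIR was the low group, outside the range of both others, and IR and PA overlapped. The difference was 0.72 between IR and NIR (1.65-fold, SE 0.12, limma adjusted p 0.01822), -0.62 between NIR and PA (adjusted p 0.0323) and 0.11 between IR and PA (adjusted p 0.8911). The first call was lost without IR2 (0.0513), without IR3 (0.0577) and with the PA arrays left out of the fit (0.112). The second was lost without IR2 (0.055), NIR2 (0.0709), NIR3 (0.0597), PA1 (0.124), PA2 (0.143) or PA3 (0.117), and with the IR arrays left out of the fit (0.0554). Its only probe set has a suffix that marks probes which can bind several transcripts, and Ackr3 has no value where such probe sets are dropped.

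Of the 5 listed genes for clearance and processing, 4 were measured, and besides Ackr3 none was called. Gpr182, another endothelial decoy receptor, Pam, the enzyme that amidates the peptide, and Mme, a peptidase that cuts it, lay below the array median on all 9 arrays. Their differences were at most 0.11 in size. The list's median was 0.03, 0.09 and 0.03 in the 3 comparisons.

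Crhr1, a receptor for corticotropin-releasing hormone that has been reported to pair with a RAMP, was high in NIR. It read 6.18, 6.35 and 5.92 in IR, 6.65, 6.99 and 6.87 in NIR and 6.01, 5.88 and 5.99 in PA, with IR and PA overlapping. Crhr1 rose in NIR against PA by 0.87 (1.83-fold, SE 0.12, limma adjusted p 0.001971) and was called in all 19 alternatives, with a highest adjusted p of 0.0192. It fell in IR against NIR (difference -0.68, adjusted p 0.01822), a call that was lost without IR1 (0.0611), without NIR2 (0.0556) and with the PA arrays left out of the fit (0.109). The other 11 of 12 receptors listed as reported RAMP partners were not called in any comparison, and 6 of the 12 lay below the array median on all arrays. The list's median was -0.02, 0.05 and 0.08.

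**Figure D3:**
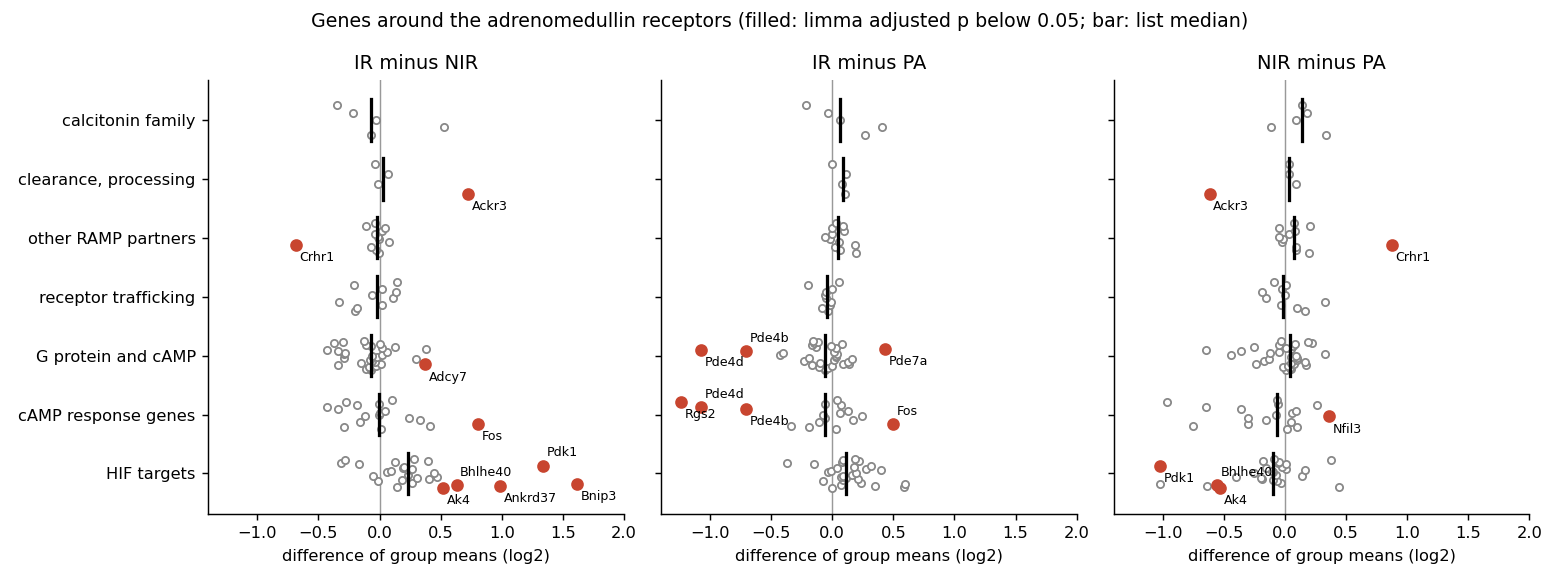
Difference of group means (log2) for the measured genes of 7 lists around the adrenomedullin receptors, in IR minus NIR, IR minus PA and NIR minus PA. Each point is a gene, filled and named where limma's adjusted p was below 0.05, and the black bar is the list's median; Pde4b, Pde4d, Crem and Calcr are each in 2 lists. The median of the HIF targets is 0.23 in IR minus NIR, and those of the other lists lie between -0.07 and 0.14 in all 3 panels.

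Downstream of the receptors, few of the 31 measured genes of 34 listed for G protein and cyclic AMP signalling were called. In IR against NIR, Adcy7, an adenylyl cyclase, rose by 0.37 (SE 0.07, limma adjusted p 0.02203), and no other did. That call was lost without IR1, IR2, IR3 or NIR2, with adjusted p-values up to 0.0659, with its probe sets averaged (0.113), with the PA arrays left out of the fit (0.105) and without probe sets that can bind several transcripts (0.27, adjusted p 0.235). In IR against PA, the cyclic AMP phosphodiesterases Pde4d (-1.07, adjusted p 0.01543) and Pde4b (-0.70, adjusted p 0.008624) fell and Pde7a rose (0.43, adjusted p 0.04831). IR3 stood nearest to PA in Pde4d, with 4.88 against 4.03 and 4.12 on the other IR arrays and 5.33 to 5.50 in PA. Pde4d lost its call without IR1, IR2, PA1, PA2 or PA3 (up to 0.0979), and Pde4b without IR1, IR2 or PA2 (up to 0.0676) and with the mean of its probe sets (-0.13, adjusted p 0.521). Pde7a was not called in 15 of 19 alternatives, and lost its call when any array other than NIR2 was left out (up to 0.22). In NIR against PA none of the 31 was called. An unadjusted p below 0.05 was found for 10 of 31 in IR against NIR, 7 in IR against PA and 6 in NIR against PA. Of all genes, 15.9%, 8.59% and 12.1% had one. Gnas, the Gs alpha subunit, differed by -0.02 between IR and NIR (adjusted p 0.9668). The list's median was -0.07, -0.06 and 0.04.

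Of 17 measured cyclic AMP response genes of 18 listed, Fos, the immediate early transcription factor, rose in IR against both other groups. It read 4.95, 4.78 and 4.93 in IR, 3.94, 4.16 and 4.15 in NIR and 4.51, 4.36 and 4.29 in PA, with no overlap between groups. The difference was 0.80 from NIR (limma adjusted p 0.002438), called in all 18 alternatives that held Fos, and 0.50 from PA (0.01824). The second lost its call without IR1, IR3, PA2 or PA3 (up to 0.104). Its signal was low, with a mean of 4.45 over all arrays, and Fos has no value where genes were filtered on signal. Against PA, Rgs2, a regulator of G protein signalling, fell in IR (-1.24, adjusted p 0.04221) besides Pde4b and Pde4d; IR3 read 8.18 where IR1 and IR2 read 7.26 and 6.99, and the call was lost in 9 of 19 alternatives, among them those without IR1, IR2, NIR3, PA1, PA2 or PA3 (up to 0.176). In NIR against PA only Nfil3, a transcriptional repressor, was called (0.36, adjusted p 0.03913), and it was lost in 11 of 19 alternatives, among them those without IR1, IR2, NIR2, NIR3, PA1, PA2 or PA3 (up to 0.153). The list's median was -0.00071, -0.06 and -0.07.

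None of 10 genes for receptor trafficking and recycling was called by limma in any comparison, with 2, 0 and 2 at an unadjusted p below 0.05. Among them Nsf, which acts with Ramp3 in receptor recycling, differed by -0.18 between IR and NIR (adjusted p 0.3141). The lowest adjusted p in the list was 0.2016 in IR against NIR, 0.6694 in IR against PA and 0.3038 in NIR against PA, and its median was -0.02, -0.04 and -0.01.

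Several HIF targets were lowest in NIR, as Adm was. Of 27 measured of 28 listed, 5 rose in IR against NIR and none fell: Bnip3, a mitophagy receptor (1.62), Pdk1, which limits pyruvate entry into mitochondria (1.34), Ankrd37 (0.99), the repressor Bhlhe40 (0.63) and the adenylate kinase Ak4 (0.52). In NIR against PA, Pdk1 (-1.02), Bhlhe40 (-0.56) and Ak4 (-0.53) fell, and in IR against PA none was called, with 5 at an unadjusted p below 0.05. The list's median difference was 0.23, 0.11 and -0.09. Its mean level was 8.04, 8.02 and 8.35 in IR, 7.75, 7.88 and 7.82 in NIR and 7.93, 7.95 and 8.10 in PA, so IR3 was highest here as it was for Adm. Bnip3 and Bhlhe40 kept their calls in IR against NIR with any single array left out, whereas Ankrd37 and Ak4 lost theirs whichever of the 9 was left out, and Pdk1 without NIR1 (0.0545) or NIR2 (0.0502). With probe sets averaged, Pdk1 (0.79, adjusted p 0.0595), Ankrd37 (0.99, 0.0555) and Ak4 (0.18, 0.172) were not called in IR against NIR. Bnip3 and Bhlhe40 kept their calls, and the list held 3, so another listed gene was called there. In NIR against PA, Pdk1 (-0.57, 0.216) and Ak4 (-0.19, 0.243) were not called, which left 1. With the PA arrays left out of the fit, none of the 5 was called, Bnip3 having an adjusted p of 0.056. In NIR against PA, Bhlhe40 lost its call without PA3 (0.0601), Pdk1 when any array other than IR3 and NIR3 was left out (up to 0.178) and Ak4 when any other than IR1 and IR3 was (up to 0.182). The part of HIF activity in the difference of Adm was not tested.

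The genes whose profiles over the 9 arrays lay closest to a member were found by the root mean square difference after each gene was centred on its own mean. This was done for the 3 members whose group means spanned more than 0.5: Ramp3, Adm and Calcrl. The values describe likeness over these 9 arrays and have no test. Since the genes were picked for likeness, a pattern shared with the member follows from the pick.

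Closest to Ramp3 were Rhoj, a small GTPase of endothelial cells, and Fdx1, a mitochondrial ferredoxin (both 0.210), followed by Rab30 (0.224), the chemokine Cxcl5 (0.229), Pop1 (0.241) and the RNA Snhg3 (0.244). Rhoj read 4.05, 4.04 and 4.25 in IR, 5.45, 4.90 and 5.11 in NIR and 5.00, 5.25 and 4.91 in PA, so it shared the low IR values, but its NIR and PA arrays overlapped. Pop1, with means of 5.89 in IR, 6.93 in NIR and 6.28 in PA, and Fdx1, with 10.34, 11.02 and 10.70, had the same order as Ramp3 without overlap. Of these 6 genes, 3 to 6 remained among the closest when an array was left out.

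Closest to Adm were Lrrc51 (0.0824), Insl6 (0.0968), Ak4 (0.117), AA467197 and Amn1 (both 0.119) and the histone gene H1f2 (0.122). Ak4 is one of the listed HIF targets, and it read 7.61, 7.69 and 8.08 in IR, 7.25, 7.19 and 7.37 in NIR and 7.74, 7.77 and 7.89 in PA, with IR3 highest and NIR lowest as in Adm. All 6 had a NIR mean below those of IR and PA, as the measure requires. With an array left out, 1 to 6 of them remained.

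Closest to Calcrl were Cxcl5 (0.168), the sodium pump subunit Atp1b1 (0.174), Nipsnap1 (0.199), Tfdp2 (0.205), the paraoxonase Pon1 (0.206) and Rida (0.207). In each of them IR3 stood above IR1 and IR2, as in Cxcl5 with 7.59 against 6.92 and 6.81. In Cxcl5, Atp1b1, Tfdp2 and Pon1, unlike in Calcrl, IR3 still lay below all NIR and PA arrays. With an array left out, 0 to 6 of them remained, the smallest number of the 3 members.

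**Figure D4:**
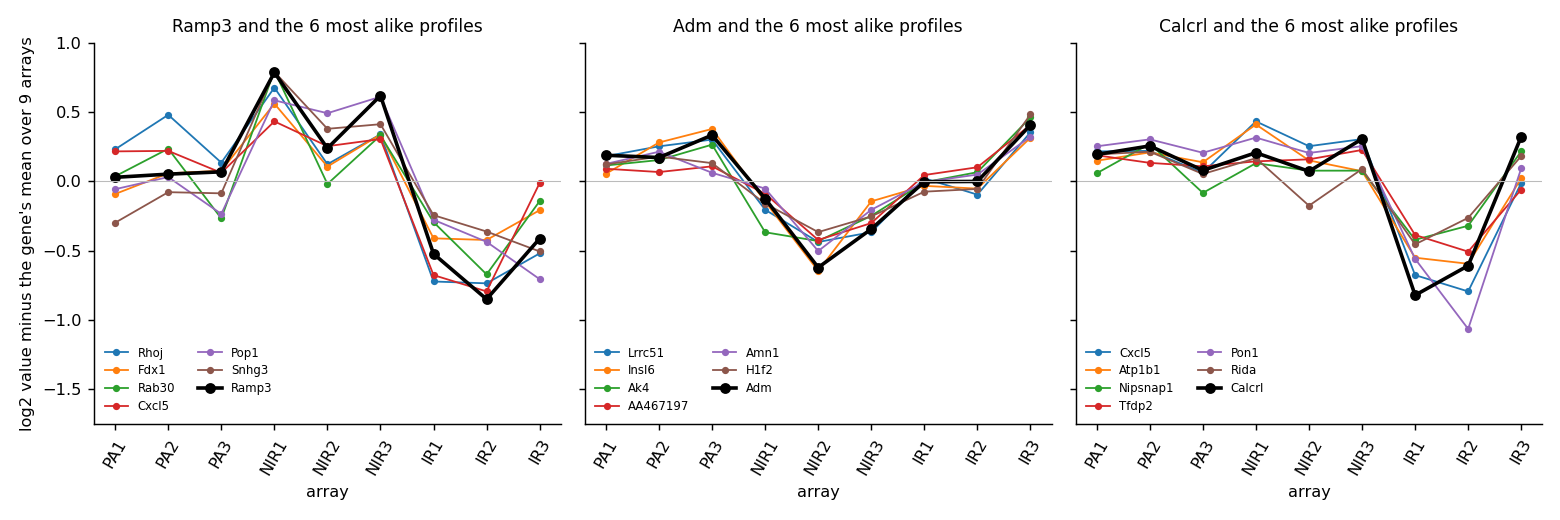
Log2 values minus each gene's own mean over the 9 arrays, for Ramp3, Adm and Calcrl (black, thick lines) and the 6 genes with the most similar profile to each (coloured lines); the arrays are on the horizontal axis in the order PA, NIR, IR. Ramp3 and its neighbours are lower on all 3 IR arrays than on any NIR array, Adm and its neighbours are low in NIR, and Calcrl and its neighbours are lower on IR1 and IR2 than on IR3.

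Markers of other cell types were read beside these values, since lines derived from tumours can hold host cells. Of 14 macrophage markers, limma called none in IR against NIR or IR against PA (2 and 6 at an unadjusted p below 0.05), and Mrc1 rose in NIR against PA (0.75, adjusted p 0.01564), a call lost without NIR1, PA1 or PA3 (up to 0.099). Their mean level was 4.77, 4.81 and 5.20 on IR1, IR2 and IR3, 4.74 to 4.85 in NIR and 4.55 to 4.68 in PA, and 5 of 14 lay below the array median on every array. The macrophage lysozyme Lyz2 read 8.25 on IR3 and 5.71 and 5.78 on IR1 and IR2, while Ptprc, the common leukocyte antigen, stayed between 3.49 and 3.88 on all arrays. IR3 is also the array on which Calcrl, Adm, Ramp3 and Calcb were highest within IR, and the part of macrophage RNA in these values was not tested. Without IR3, the difference between IR and NIR was -1.24 for Ramp3, -0.91 for Calcrl and 0.36 for Adm. The Ramp3 value belongs to the comparison that chose the set.

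Among 4 lymphatic endothelial markers, Pdpn fell in IR against NIR (-0.41, limma adjusted p 0.0423), a call lost when any array other than NIR2 was left out (up to 0.126), and nothing else was called. Of 10 fibroblast markers, Dcn rose in IR against PA (1.24, adjusted p 0.002646, and 0.60 with its probe sets averaged, 0.0367) and in NIR against PA (0.81), as did Lum in NIR against PA (1.29). In NIR against PA, Dcn lost its call without IR1, IR2, NIR1, NIR2, PA1, PA2 or PA3 (up to 0.178) and with its probe sets averaged (0.37, adjusted p 0.224), and Lum without NIR1, NIR2, PA1, PA2 or PA3 (up to 0.119). The fibroblast markers had a mean of 7.11 to 7.22 in IR, 6.96 to 7.32 in NIR and 6.76 to 6.92 in PA, so IR and NIR overlapped. None of 8 pericyte and smooth muscle markers and none of 8 lymphocyte markers was called in any comparison, with at most 1 of 8 at an unadjusted p below 0.05. Krt18 was the only squamous or epithelial marker called, higher in IR than in NIR (0.57, adjusted p 0.01803) and in PA (0.55, adjusted p 0.0146). The first call was lost without IR1, IR2 or IR3 (up to 0.0609) and the second without IR1, IR2, PA1, PA2 or PA3 (up to 0.0901). The part of these cell types in the members' values was not tested.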

How the data were processed

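The labels give 3 groups (IR, NIR, PA) of 3 arrays each. Per the labels' protocols, a Qiagen RNeasy kit, biotin labelling and standard Affymetrix steps were used. The authors deposited log2 expression values; RMA is named per the submitters' processing notes, and its version is not given in the sources used here. Values ran from 2.47 to 14.0. Of 45100 probe sets, 64 were controls; the platform annotation assigned 34944 to just 1 gene and 932 to more, and named no gene for 9160. Symbols were updated through RefSeq for 34740 probe sets.

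A gene's brightest probe set by mean over all arrays stood for it, which left 18193 genes, 9010 of them with a choice to make. Group means were fitted to all 9 arrays at once with limma 3.58.1 under R 4.3.3 (lmFit, eBayes, 2-sided, without covariates; residual df 6, prior df 5.48). Benjamini-Hochberg adjustment ran over all genes, and an adjusted p below 0.05 was a call. A further fit covered every single-gene probe set. Only the fit over genes was tested on simulated data. The members and the gene lists were chosen with earlier results of these data known. All 5 members were named, with called genes of each list (at most 6 per list and comparison, otherwise up to 3 by size of difference) and the 6 most alike profiles. Gnas, Nsf, Lyz2, Ptprc, Cdh5 and other markers not called were named after their values were seen.

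The alternatives changed 1 step each. They filtered on signal, averaged probe sets, dropped probe sets with an x or s suffix, tested all probe sets, centred arrays on the median, applied quantile normalisation again, used limma's trend and robust options or its array weights, fitted only the groups compared, added the replicate number as a block, took another probe set of a member, lowered the threshold to 0.01 or omitted an array. The alternatives for alike profiles were chosen after seeing the data. Listed genes with no single-gene probe set, Calca among them, are not analysed here. Plots used matplotlib 3.10.9 (Python 3.11.15).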

Additional observations from a re-analysis of the deposited data

How the results depend on the processing

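Ramp3 kept its direction in all 3 comparisons under 19 alternatives, but this was largely fixed in advance. The values in IR chose the set. Ramp3 has a single probe set and groups that did not overlap, so leaving out an array or choosing probe sets could not turn a sign. Its difference between NIR and PA passed with array weights (0.56, limma adjusted p 0.0316) and ran from 0.38 to 0.65 with an array left out. For Adm in NIR against PA, the trend and robust settings (-0.59, adjusted p 0.0371) and array weights (-0.53, 0.0246) passed, with -0.71 to -0.47 over single arrays left out. Calcrl passed with array weights in IR against NIR (-0.83, 0.0379) and against PA (-0.79, 0.0177), with -0.91 to -0.34 and -0.89 to -0.32 over arrays left out; its NIR minus PA ran from -0.037 to 0.080, and was -0.021 on 1418489_a_at. The sign of Ramp2 in IR against NIR turned under median centring (-0.0012), quantile normalisation (-0.0036) and array weights (-0.033), and ran from -0.10 to 0.12 over arrays left out, as did NIR minus PA from -0.0059 to 0.22. Ramp1 turned in NIR against PA with the mean of its probe sets (0.061), on 1431413_at (0.071) and on 1447474_at (0.15), and in IR against NIR on 1447474_at (-0.13); over arrays left out it ran from -0.15 to 0.016 in NIR against PA and from -0.014 to 0.15 in IR against PA. The causes were not tested.

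The numbers of genes called, 300 in IR against NIR, 192 in IR against PA and 236 in NIR against PA, ran over single arrays left out from 77 to 271, from 99 to 214 and from 121 to 370. The compared arrays alone gave 11 in IR against NIR, testing every probe set 199, array weights 468 in IR against PA and 382 in NIR against PA, and an adjusted p below 0.01 gave 41, 100 and 108. Leaving out any single array did not turn the sign of Adm in any comparison, and for Ramp3, whose groups did not overlap, it could not. Dim probe sets of Calcrl and Ramp1 limit what these arrays resolve.

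Deviations of arrays with the same replicate number correlated between -0.201 and 0.0974, and those with different numbers between -0.123 and 0.251. Same-numbered arrays were thus no more alike, which cannot tell whether the samples were paired by design. With the replicate block, 230, 164 and 203 genes were called, and Adm in NIR against PA (-0.595) reached an adjusted p of 0.05, while Ackr3 (0.0684) and Dcn (0.0626) were lost there. Cdh5 turned in IR against PA with probe sets averaged (-0.067) and array weights (-0.094), and ran from -0.15 to 0.14 over arrays left out.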

Other observations

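Many probe sets carried exactly the same value on several arrays: 20339 of 34944 single-gene probe sets (58.2%) had a value repeated on at least 2 of the 9 arrays. The probe sets used for Adm, Calcrl, Ramp1, Ramp2 and Ramp3 had none. Among their other probe sets, 1459536_at of Calcrl held a single value on 4 of 9 arrays, 1431413_at of Ramp1 on 3 and 1447474_at of Ramp1 on 2. The probe sets annotated to both Ramp2 and Vps25 differed by 0.07 (1421051_s_at) and -0.10 (1428621_a_at) between IR and NIR.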
